A study of Oryzias latipes with 7 samples.

Results

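The last hours before spawning were examined by setting the array of medaka ovarian follicles taken 2 h before spawning against the array taken 8 h before it. These are 2 of the 7 arrays of the series, and they were chosen by their developmental stage labels alone. The probe sets that differed were then placed by their level on the 47, 35, 32, 23 and 14 h arrays. Medaka (Oryzias latipes) is a small teleost fish. The animals were kept at 27 °C with 14 h of light and 10 h of dark, the largest and second-largest follicles were taken, and RNA of 100 follicles per time was labelled with Cy3 for a 1-colour NimbleGen array. No strain, age or treatment is stated, and by the labels the groups share these conditions and differ in time. Follicles of a time were pooled and each time has 1 array. No difference below therefore has a replicate check, and values are given without a test.

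A follicle is an oocyte enclosed by granulosa and theca cells. In female medaka a surge of luteinizing hormone is followed by breakdown of the oocyte's nucleus, by ovulation, when the follicle wall breaks open and releases the egg, and by spawning around the start of the light period. In teleosts the matrix of the follicle wall is cut by proteases at ovulation, and the oocyte then relies largely on RNA it stored earlier.

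Each array gave an RMA intensity, a linear brightness summarised over the probes of a probe set, for 63698 probe sets. The text uses the 47773 whose mean log2 intensity over the 7 arrays exceeded the 25th percentile, 6.24, or an intensity of 75.8. The files used here do not pair the probe set identifiers with gene names, so the label of the tissue was not checked against marker genes, and the results describe groups of probe sets. At most 4 identifiers are named.

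Some facts of the arrays bear on every value below. The 2 h and 8 h arrays come from different series of array numbers, 6 digits for 2 h (with 47, 23 and 14 h) and 8 digits for 8 h (with 35 and 32 h). Their median intensities over all probe sets were 685 at 2 h and 599 at 8 h, a shift of 0.19 on the log2 scale. The deposited series table has the same array at 8 h as the per-array files but places 5 of the 7 arrays at other times. The array filed under 35 h stands at 2 h in the table, that of 32 h at 14 h, that of 23 h at 35 h, that of 14 h at 32 h and that of 2 h at 23 h. The per-array files were followed, and every course over time given below rests on their order. By the table's times, 1667 probe sets were 4-fold higher and 1907 were 4-fold lower at 2 h than at 8 h. Of the probe sets called by the per-array files, 409 of the higher (19.5%) and 795 of the lower (43.2%) were called the same way by the table, and 140 the opposite way. These were 24.5% and 41.7% of the table's own calls. In 1 label field the 2 h sample is called 5 h. In RNA of whole follicles, fewer cells of a type and less RNA per cell cannot be told apart.

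At 2 h, 2101 probe sets reached at least 4 times their 8 h level (4.4% of those kept) and 1842 were at least 4-fold below it (3.86%), together 3943 or 8.25%. The median difference among the higher ones was 2.71 on the log2 scale, or 6.56-fold, with quartiles of 2.28 and 3.47. Among the lower ones the median was 2.67 downward, or 6.38-fold, with quartiles of 2.27 and 3.51. The pair of arrays that lie nearest in time, 32 h and 35 h, differed by 4-fold in 369 probe sets (0.772%), and the 95th percentile of the absolute log2 difference was 2.50 between 2 h and 8 h, against 1.02 there. Those nearest arrays belong to 1 array-number series, so they show the spread within a series only. They are nearest by the per-array files, and by the series table's times they stand at 14 h and 2 h.

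The gap to the pair of 32 h and 35 h widened with the size of the difference. At 16-fold or more, 341 probe sets were higher (0.714%) and 325 lower (0.68%) at 2 h than at 8 h, against 9 and 8 at 32 h against 35 h. At 64-fold or more there were 58 higher (0.121%) and 47 lower (0.0984%) in the last interval, and 0 at 32 h against 35 h. The 8 h and 14 h arrays, also of different number series, were closer to the last interval and differed by 4-fold in 3069 probe sets (6.42%). At 16-fold or more 294 were higher and 157 lower at 8 h than at 14 h, and at 64-fold or more 69 and 28. The 14 h and 23 h arrays, both of the 6-digit series, differed by 4-fold in 950 probe sets (1.99%). There 133 were higher and 32 lower at 14 h at 16-fold or more, and 63 and 4 at 64-fold or more. Against this pair the gap did not widen. Around the 4-fold limit of 2 h against 8 h, 278 higher probe sets lay between 4 and 4.4-fold and 374 lay just outside, between 3.6 and 4-fold. For the lower probe sets these numbers were 254 and 335.

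**Figure D1:**
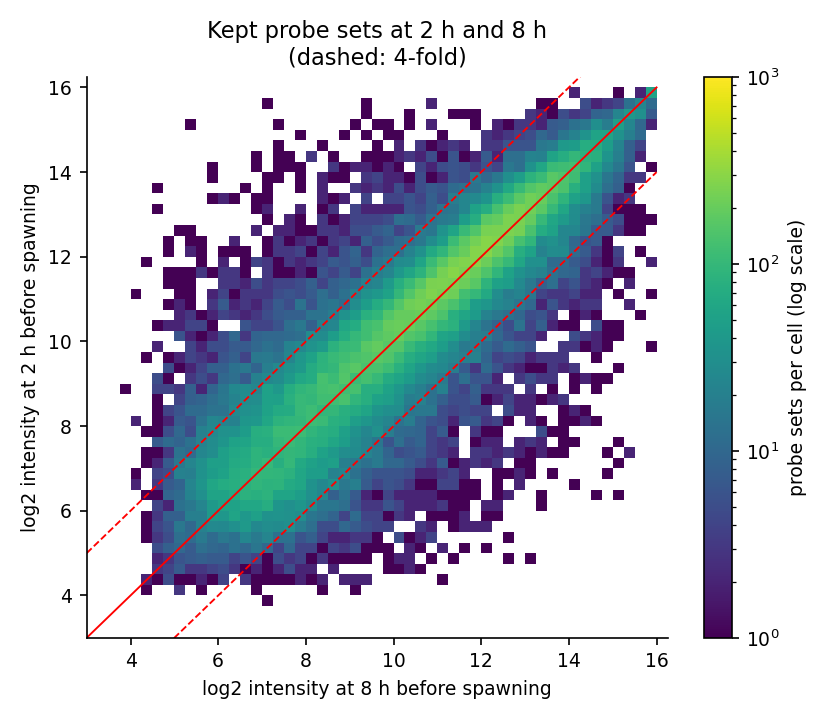
Log2 intensity at 2 h (vertical axis) against log2 intensity at 8 h (horizontal axis) for the 47773 kept probe sets, with the colour giving the number of probe sets per cell on a log scale. The dashed lines mark 4-fold, and the 2101 probe sets above the upper line and the 1842 below the lower line spread to both corners of the plot.

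The balance of directions depended on the scaling. After each array was centred on its median, 1710 probe sets were 4-fold higher at 2 h (3.58%) and 2290 were 4-fold lower (4.79%). The higher ones then made up 42.8% of the differences, against 53.3% as deposited, and after quantile normalization they made up 49.0%. Centring lowers every difference by the same 0.19, so the 1710 are a part (81.4%) of the 2101 and the 2290 include all 1842. In 5 bins of equal size by mean level at the 5 earlier times, the median log2 difference of 2 h over 8 h was 0.04 in the lowest bin, 0.26 in bin 2 and -0.01 in the highest, so the shift between these arrays was not the same at all levels.

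The filter on low values includes the 2 h and 8 h arrays. Of the 2101 higher probe sets, 176 would not have passed on the mean of the other 6 arrays. Their high 2 h level brought them in, so the filter favoured a difference there. Of these 176, 145 stood above the earlier range at 2 h. Of the 1842 lower ones, 105 passed only through their 8 h level. Among the 15925 probe sets left out, 514 were 4-fold higher and 382 were 4-fold lower at 2 h.

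The earlier range of a probe set is taken here as the span from its lowest to its highest level at 47, 35, 32, 23 and 14 h, widened by 2-fold at each end. By this measure the higher and the lower probe sets took different places. At 2 h, 1165 (55.5%) of the 2101 higher probe sets stood above the earlier range, and 518 (28.1%) of the 1842 lower ones stood below it. Over all kept probe sets 5.61% were above the range and 4.36% below it at 2 h. At 8 h, 3.42% were above and 3.73% below. The 2 h level also chose the higher and lower sets, so their excess over all kept probe sets at 2 h is in part built in. After a series shift taken from the 47, 35 and 32 h arrays was removed, the counts beyond the range at 2 h were 1273 of 1943 higher and 832 of 1955 lower probe sets. This correction sets 47 h to the mean of 35 and 32 h, so 47 h cannot widen the range there. With an offset of 64 added to all intensities the counts were 1001 of 1458 and 335 of 1318, and with a filter at the 50th percentile 417 of 688 and 365 of 904. At 2 h, 456 of the 1842 lower probe sets (24.8%) stood below the filter's intensity of 75.8, which leaves little room below a dim earlier range. By the table's times 93 higher probe sets lay above and 71 lower ones below, where the array filed under 2 h is itself 1 of the 5 that set the range.

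**Figure D2:**
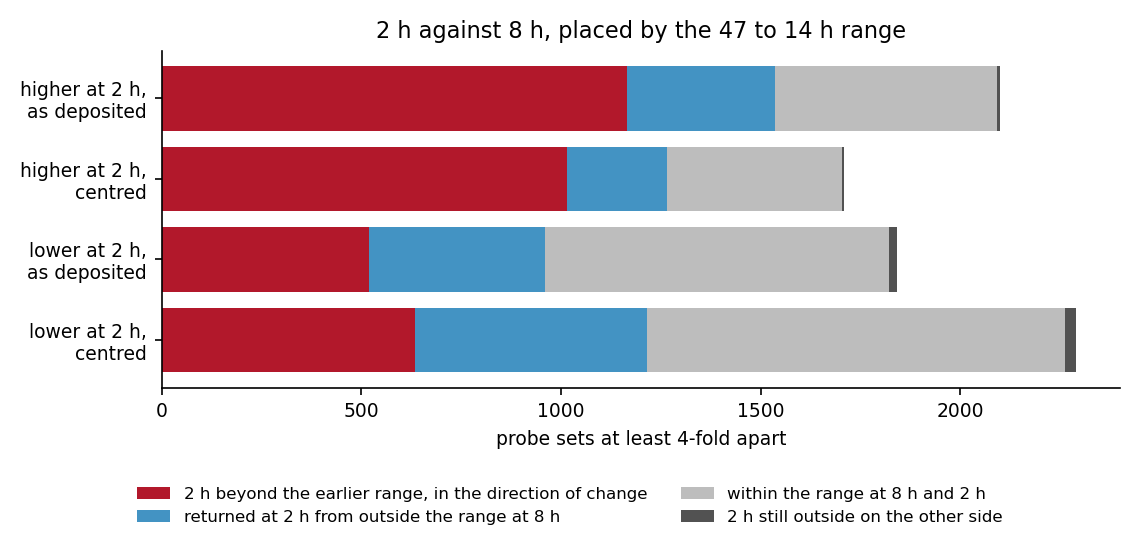
Number of probe sets at least 4-fold higher or lower at 2 h than at 8 h (horizontal axis), as deposited and with each array centred on its median, split by place against the earlier range. Levels beyond the range at 2 h made up 1165 of the 2101 higher and 518 of the 1842 lower probe sets as deposited, and the within-range part was the largest of the lower bars.

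The largest group of higher probe sets, 1009 or 48.0%, lay within the earlier range at 8 h and above it at 2 h. Of all kept probe sets 4.18% had these places. The 2 h and 8 h levels chose the sets, so this and the like excesses below are in part built in. The median intensity of the 1009 was between 284 and 339 on every array from 47 h to 8 h and 3152 at 2 h. The 2 h level exceeded the highest earlier array by a median of 2.14 on the log2 scale, an excess of over 2-fold being how the group was chosen. Over the 5 earlier arrays 418 of its members (41.4%) had kept within a 2-fold range, against 58.6% of all kept probe sets. Of the 1009, 113 passed the filter only through their 2 h level, with a median intensity of 52.7 to 63.6 from 47 h to 8 h and of 1093 at 2 h. Among the other 896 the medians were 348 to 417 from 47 h to 8 h and 3493 at 2 h.

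Probe set K_OLAT0000S00016617 had the largest difference among the probe sets with a new high at 2 h. It gave intensities of 63.8, 31.4, 33.2, 60.2 and 19.9 at 47, 35, 32, 23 and 14 h. The intensity was 35853 at 2 h and 42.2 at 8 h, and it passed the filter only through the 2 h value. With no detection limit known for the low arrays, no fold is given. It was near the low end of the scale on 6 arrays and among the bright probe sets on the 2 h array alone.

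A smaller group of 99 probe sets had left the earlier range upward by 8 h and was higher still at 2 h. From 47 h to 14 h the group's median intensity was between 94.0 and 121. It was 792 at 8 h and 11860 at 2 h, so that the gain was spread over the last 2 intervals. In a further 57 probe sets the level was below the earlier range at 8 h and above it at 2 h, with a median intensity of 1917 at 2 h and 75.7 at 8 h.

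The remaining higher probe sets did not pass the earlier range. In 372 (17.7%, against 2.46% of all kept) the level was below the range at 8 h and back within it at 2 h. Their median intensity was 521 at 2 h and 72.5 at 8 h, against 363 to 569 over the 5 earlier arrays. At 8 h, 196 of these 372 stood below the intensity of 75.8 used for the filter. This group was sensitive to the treatment of low values, with 131 members after the offset of 64. It had 52 members after a fitted series term was removed and 296 after removal of the shift from 47, 35 and 32 h. The fit included the 2 h and 8 h arrays, so its term takes up part of the difference that chose the group. Another 556 (26.5%, against 85.5% of all kept) were within the range at both times. Their median intensity was 762 at 2 h and 125 at 8 h. The last 8 lay below the range at both times.

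Probe set K_OLAT0000S00013758 had the largest difference among those that returned from a low at 8 h. Intensities of 4586, 2091, 2046, 533 and 319 were recorded at 47, 35, 32, 23 and 14 h. The value was then 2320 at 2 h and 43.3 at 8 h, where it lay below the intensity used for the filter. The course was downward over the first 6 arrays, and the 2 h level lay between those of 47 h and 35 h.

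Among the lower probe sets the largest group, 862 or 46.8%, was within the earlier range at both times, against 85.5% of all kept ones. Its median intensity over the 7 arrays in time order was 300, 380, 440, 685, 1291, 1585 and 194. The median thus stood higher at each successive time up to 8 h and at 2 h was below that of 47 h. The 8 h and 2 h values restate in part how the set was chosen. Both levels of a member lie within its earlier range although they are 4-fold apart, so most members had a wide range by how the group was chosen, and 36 (4.18%) had been even, against 58.6% of all kept probe sets.

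A group of 441 (23.9%, against 2.06% of all kept) was above the earlier range at 8 h and back within it at 2 h. Its median intensity was 266 at 2 h and 2638 at 8 h, against 222 to 362 over the 5 earlier arrays. After removal of a fitted series term 142 such probe sets were found, and after removal of the shift from 47, 35 and 32 h 408. The fit again included the 2 h and 8 h arrays.

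OLAT0001S00002069 had the largest difference in this group. It gave 63.9, 50.6, 24.7 and 41.4 at 47, 35, 32 and 23 h, then 960 at 14 h and 9905 at 8 h, and 68.0 at 2 h. The 2 h level was near that of 47 h and below the intensity used for the filter. It was high on the 14 h and 8 h arrays, which belong to different number series, and low on the other 5.

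New lows at 2 h were found in 450 probe sets (24.4%, against 3.15% of all kept) that had been within the range at 8 h. Their median intensity was 1668 to 3661 over the 5 earlier arrays, above the medians of the 862 and the 441 there, and 2451 at 8 h, between those of the 862 and the 441. At 2 h the median was 200, and the 2 h level lay under the lowest earlier array by a median of 1.91 on the log2 scale. Of the 450, 124 ended below the intensity of 75.8.

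The probe set with the largest difference among the new lows was K_OLAT0000S00022589. The 5 earlier arrays gave intensities of 11643, 2479, 17831, 28242 and 22249 in time order. It was 80.1 at 2 h, against 35326 at 8 h. The 8 h level was its highest and the 2 h level its lowest of the 7 arrays.

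In 43 probe sets the level had left the range downward by 8 h and was lower again at 2 h. Their median intensity lay between 4674 and 9024 from 47 h to 14 h and was 1168 at 8 h and 140 at 2 h. The other lower probe sets comprised 25 that were above the range at 8 h and below it at 2 h, and 21 that were above it at both times. The 21 had a median intensity of 587 at 2 h and 6776 at 8 h, against 40.1 to 85.8 over the 5 earlier arrays.

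**Figure D3:**
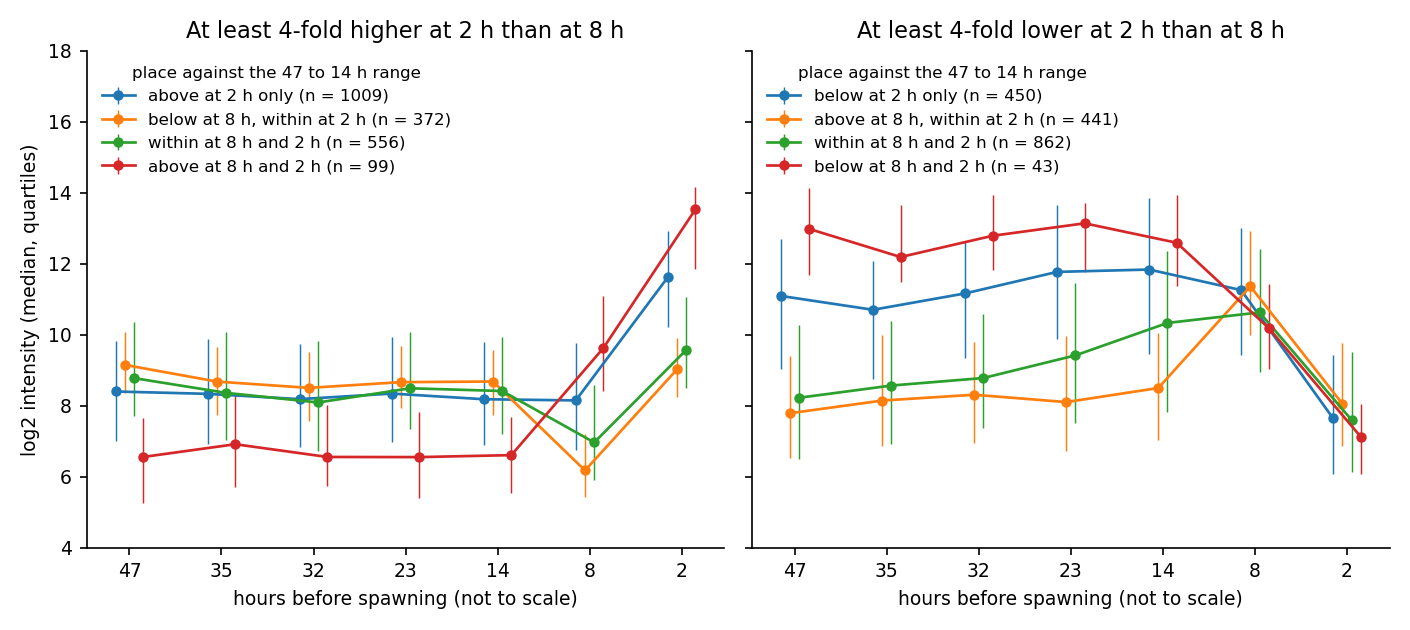
Median log2 intensity (points) with quartiles (bars) of the main groups over the 7 arrays in time order. On the left, the 1009 probe sets above the range at 2 h only run level up to 8 h and stand apart at 2 h. On the right, the median of the 862 within the range at both times is higher at each time up to 8 h and falls below its 47 h value at 2 h.

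**Figure D4:**
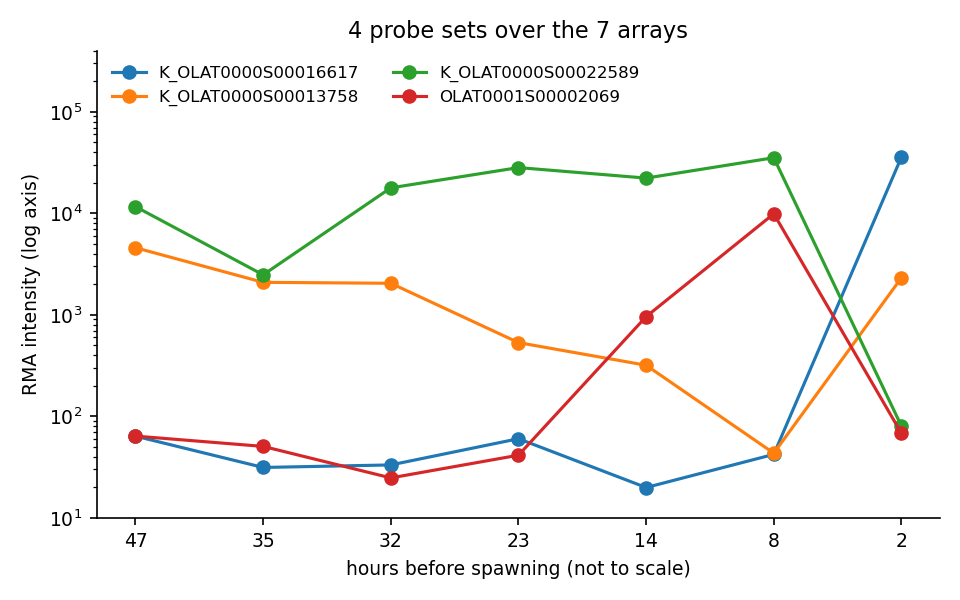
RMA intensity (log axis) of the 4 named probe sets on each of the 7 arrays in time order. K_OLAT0000S00016617 is high at 2 h alone, OLAT0001S00002069 at 14 h and 8 h, and K_OLAT0000S00022589 is low at 2 h alone.

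The earlier course of the same probe sets was described without the 2 h and 8 h arrays, by the mean of the 23 and 14 h arrays against the mean of the 47, 35 and 32 h arrays. Among the lower probe sets, 719 (39.0%) had gained 2-fold or more by 23 and 14 h, where 7.96% of all kept probe sets did. Their median log2 level was 8.74 at the 3 earliest times, 11.56 at 23 and 14 h, 11.71 at 8 h and 8.14 at 2 h. The last 2 values restate in part how the set was chosen. Within the group of 862, 431 had this course, 158 had fallen by 2-fold or more and 273 had done neither. With the series table's times 438 of 1907 lower probe sets had risen, and the share of all kept probe sets was not counted there.

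The reverse course was less frequent among the higher probe sets. Of the 2101, 316 (15.0%) stood at least 2-fold lower at 23 and 14 h than at the 3 earliest times, against 6.29% of all kept probe sets. The lower probe sets had this falling course almost as often, in 238 (12.9%). With the series table's times 304 of 1667 higher probe sets had fallen, against 438 of 1907 lower ones that had risen. The contrast between the directions was smaller by those times. The median log2 level of the 316 was 9.52 at 47 to 32 h, 7.50 at 23 and 14 h, 7.21 at 8 h and 10.84 at 2 h. Here too the 2 h and 8 h values restate in part the choice of the set. A further 255 higher probe sets (12.1%, against 7.96% of all kept) had gained 2-fold or more by 23 and 14 h. The other 1530 (72.8%, against 85.8% of all kept) had moved by less than 2-fold in either direction. The higher and the lower probe sets thus both exceeded the share of all kept ones in both courses. Both 23 h and 14 h belong to the 6-digit series and the 3 earliest times to both. After removal of the shift from 47, 35 and 32 h, 682 of 1955 lower probe sets had risen by 23 and 14 h. Of 1943 higher ones, 278 had fallen there. The share of all kept probe sets was not counted under that setting, and the part of the series in these courses was not tested further.

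Evenness over the 5 earlier arrays, which uses neither the 2 h nor the 8 h array, was counted for both directions. Of the higher probe sets 666 (31.7%) had kept within a 2-fold range from 47 h to 14 h, and of the lower ones 255 (13.8%), where 58.6% of all kept probe sets had. These numbers were 88 and 97 by the table's times and 175 and 61 after removal of a fitted series term, and without the 14 h array 487 of the lower ones were even. Removal of the shift from 47, 35 and 32 h gave 832 and 504, where 47 h equals the mean of 35 and 32 h by construction. The array with the highest earlier level was 14 h for 43.7% of the lower probe sets, against 21.4% of all kept ones. For the higher probe sets it was most often 47 h, with 27.7% against 22.0% of all. The lowest earlier level of the lower probe sets was most often at 35 h (31.4%, against 24.2% of all) or 47 h (28.7%, against 12.5%).

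The 14 h array gives another view of the same probe sets, although its differences from 8 h and from 2 h share arrays with the comparison that chose them. The higher probe sets had a median log2 difference of 2.05 at 2 h against 14 h and of -0.77 at 8 h against 14 h. At 2 h 1083 of them (51.5%) were at least 4-fold above 14 h, where 4.31% of all kept probe sets were, and 514 (24.5%) lay within 2-fold of it. The lower probe sets had a median difference of -1.95 at 2 h against 14 h and of 0.86 at 8 h against 14 h. Of these, 910 (49.4%) were at least 4-fold below 14 h at 2 h, where 4.88% of all were, and 531 (28.8%) lay within 2-fold. The 2 h and 14 h arrays belong to 1 number series and their medians differed by 0.01 on the log2 scale, so the split between directions there hardly depends on centring, with 2060 higher and 2329 lower as deposited and 2052 and 2343 when centred.

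Differences were more frequent among weakly than among strongly expressed probe sets, in the last interval as in the other pairs counted by level. In the lowest of the 5 level bins (intensities of 22.3 to 290), 10.1% were 4-fold higher and 6.44% were 4-fold lower at 2 h than at 8 h. This bin reaches below the filter's intensity of 75.8. Its probe sets under that intensity were kept only through their 8 h or 2 h level, so a part of its shares, not counted here, comes from the filter. In bin 2, which lies above that intensity, 7.13% were higher and 4.95% lower. In the highest bin (6018 and above) 0.40% were higher and 2.33% lower, or 38 against 223 probe sets. Probe sets that were bright through the earlier stages thus differed downward more often than upward, and they did so after centring as well, with 25 higher and 279 lower. At 8 h against 14 h the highest bin held 39 higher and 81 lower, and at 32 h against 35 h 17 and 0. The gradient with level was not particular to the last interval. At 8 h against 14 h, 13.5% of the lowest bin and 1.26% of the highest differed by 4-fold. At 32 h against 35 h these shares were 1.90% and 0.18%. The highest intensity on the array was 65143 at 2 h and 65328 at 8 h, which bounds a 4-fold gain of a bright probe set.

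**Figure D5:**
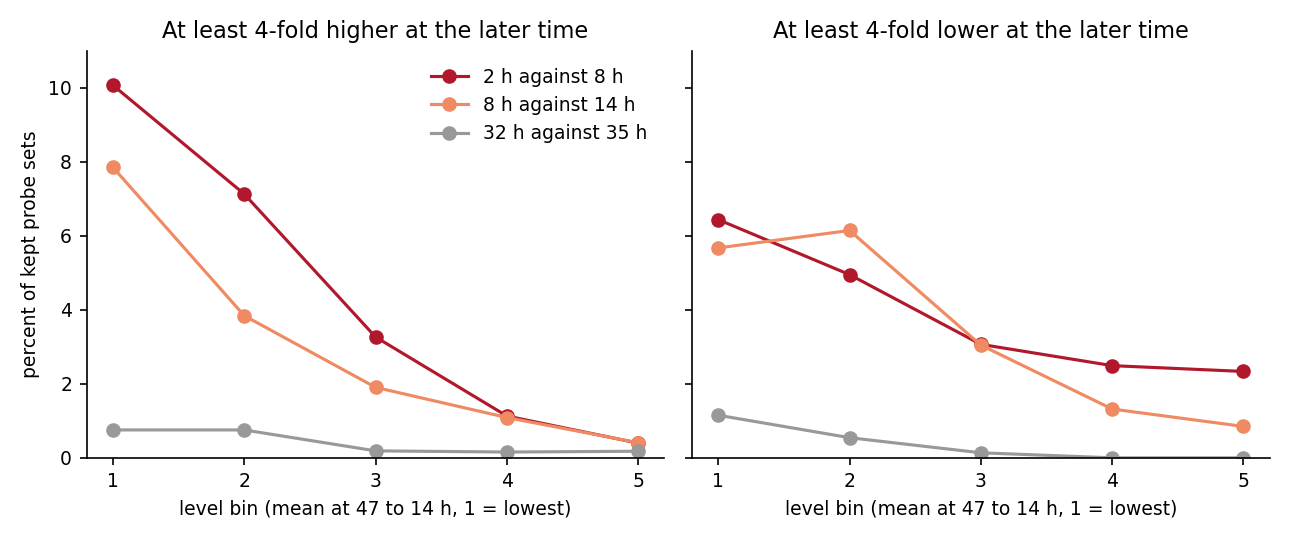
Percent of kept probe sets at least 4-fold higher (left) or lower (right) at the later time, in 5 bins of the mean level at 47 to 14 h, for 3 pairs of arrays. For 2 h against 8 h the share of higher probe sets drops from 10.1% in the lowest bin to 0.40% in the highest. The share of lower ones drops from 6.44% to 2.33%. Both shares also drop from the lowest to the highest bin in the other pairs. The lowest bin includes probe sets kept only through their 8 h or 2 h level.

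In terms of summed brightness the 2 sets changed places. The 2101 higher probe sets carried 4.91% of the summed intensity of the kept probe sets at 2 h and 0.62% at 8 h, against 0.86 to 1.13% over the 5 earlier arrays. The 1842 lower probe sets carried 0.69% at 2 h and 5.54% at 8 h, after 2.07 to 2.57% at 47 to 32 h, 3.87% at 23 h and 4.86% at 14 h. Since the sets were chosen by this difference, the values at 2 h and 8 h only describe its size. Of the 300 brightest probe sets at 2 h and the 300 brightest at 8 h, 186 were the same. The corresponding number was 201 for 8 h and 14 h, 189 for 23 h and 32 h, and 255 for 32 h and 35 h. Of the 300 brightest at 2 h, 16 were 4-fold higher than at 8 h (5.33%, against 4.4% of all kept). Of the 300 brightest at 8 h, 22 were 4-fold lower at 2 h (7.33%, against 3.86%). Each list was picked by a level that enters the difference, so these excesses are in part built in and no conclusion is drawn from them.

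The probe sets at the far ends were placed against the earlier range in the same way. Of the 58 that were at least 64-fold higher at 2 h, 56 stood above the earlier range and 2 within it at both times. Their median intensity was 10601 at 2 h, 76.0 at 8 h and 65.1 at 14 h, 29 of them were below the filter's intensity of 75.8 at 8 h, and 30 passed the filter only through 2 h. Of the 47 that were at least 64-fold lower at 2 h, 23 stood below the earlier range, 11 were back within it from a high at 8 h, 12 were within it at both times and 1 was above it at both. Their median intensity was 88.4 at 2 h, 8398 at 8 h and 10376 at 14 h, and 18 ended below 75.8. Almost all upward extremes stood above the earlier range, but the 30 were dim on the other arrays by how they passed the filter. As many downward extremes lay within the widened range at 2 h as lay below it. A dim earlier array leaves little room below that range, so the 2 directions are not alike in what they could show.

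The array carries identifiers of 2 forms, 25248 beginning with K_OLAT0000S and 38450 beginning with OLAT0001S, whose meaning the files do not state. Of the kept K_OLAT0000S probe sets 5.65% were 4-fold higher and 5.40% were 4-fold lower at 2 h than at 8 h, against 3.71% and 3.01% of the OLAT0001S ones. The K_OLAT0000S probe sets were also dimmer, with a median intensity of 268 at 2 h and 246 at 8 h, against 1213 and 1051. Within the 5 level bins the share of probe sets lower at 2 h was greater for K_OLAT0000S in each bin, from 7.24% against 5.65% in the lowest to 4.13% against 1.84% in the highest. The share higher at 2 h was also greater for K_OLAT0000S in each bin. It was 10.2% against 9.93% in the lowest bin and 0.63% against 0.33% in the highest, which held 13 and 25 such probe sets. Probe sets with 1 to 5 probes, which are 329 of those kept, differed by 4-fold in 12.8%, against 8.22% of those with 6 probes.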

How the data were processed

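RNA of pooled ovarian follicles was measured on 7 arrays, 1 per time before spawning. The authors deposited RMA intensities on a linear scale, per the file headers; the submitters' processing notes also name RMA. Its settings and version, not given in the sources used here, could shift levels. The deposited files also hold a count of probes per probe set, 6 in 99.3% of probe sets. A column headed as an error of the expression value was not used, since its scale is not explained.

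Arrays were assigned to times by the developmental stage label. The authors' deposited intensities were then converted to log2, and probe sets at or below the 25th percentile of the mean over the 7 arrays were left out, which kept 47773 of 63698. Differences of 4-fold or more, the place against the earlier range (2-fold margin) and evenness (under a 2-fold range at 47 to 14 h) were counted without a test in Python 3.11.15 with pandas 2.3.3. The counting was tried on simulated profiles with the spread of the 32 h and 35 h arrays. Recovery was required only for planted changes of 64-fold or more, so this is no check of calls near the 4-fold limit. The values carry no detection limit, and precision is limited by the number of arrays.

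The comparison and its alternatives were chosen with earlier results of these data known. Alternatives were centring, quantile normalization, the filter, an offset of 64, other fold limits and margins, removal of an array-number series effect (from the 47, 35 and 32 h arrays, or fitted with limma 3.58.1 in R 4.3.3 together with a slope on hours), the series table's times and leaving out each earlier array. The description by the mean of 23 and 14 h was added after the data were seen.

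Lists of genes and of cell type markers had been drawn up in case the identifiers could be named. The identifiers matched 0 entries of the reference gene table, so the lists were not applied. The named probe sets are therefore 2 higher and 2 lower ones, each with the largest difference, past 4-fold before and after centring, among those beyond the earlier range at 2 h or back within it from outside at 8 h.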

Additional observations from a re-analysis of the deposited data

How the results depend on the processing

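Counts that moved by more than 1.5 times are given here by setting. A filter at the 50th percentile gave 688 higher and 904 lower probe sets at 2 h against 8 h, 417 higher ones above the earlier range, 88 higher and 161 lower ones returned to it, and 261 higher and 137 lower ones that were even before. A 2-fold limit gave 7181 higher and 5919 lower, 1973 above and 1212 below the range, 819 and 808 returned, and 3160 and 1680 even. An 8-fold limit gave 800 and 685, then 579 and 260, 114 and 177, and 219 and 60 in the same order. Removal of a series term fitted with limma gave 1241 higher, 52 and 142 returned, and 175 and 61 even. Removal of a shift taken from the 47, 35 and 32 h arrays, which sets 47 h to the mean of 35 and 32 h, gave 832 below the range and 504 lower ones even. An offset of 64 gave 335 below the range and 131 higher ones returned. No filter gave 678 lower ones returned and 401 lower ones even. A 4-fold margin gave 686 above, 256 below, and 111 and 191 returned, and no margin gave 1078 below. The times of the series table gave 93 above, 71 below, and 88 and 97 even, and 438 lower ones that had risen by 23 and 14 h. The cause of these changes was not tested beyond what a smaller or larger number of probe sets or a wider limit brings by construction.

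Leaving out 1 of the 5 earlier arrays gave 1169 to 1227 above the range, 533 to 599 below it, 370 to 434 higher and 446 to 630 lower ones returned, and 784 to 908 higher and 325 to 487 lower ones even. The count of 487 came without the 14 h array, against 255 with all 5, and fewer arrays can only narrow a range. Centring and quantile normalization moved none of these counts by more than 1.5 times, but more were lower than higher under both (1710 and 2290, 2003 and 2084). The same balance held with the filter at the 50th percentile, with either series correction (1943 and 1955, 1241 and 1357) and with the times of the series table (1667 and 1907). More were higher than lower with no filter (2615 and 2224), with an offset of 64 (1458 and 1318) and with the 2-fold and 8-fold limits. No paired analysis was possible because each time has 1 array.

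The single array per time and the missing detection calls limit every count here, most of all for probe sets near the low end of the intensity scale.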
